A study of Danio rerio with 12 samples.

Results

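Whole 2-day zebrafish (Danio rerio) given synthetic miR-101a were compared directly with zebrafish given the same dose of synthetic miR-29a. The members are 7 of the 12 RNA sequencing libraries, miR-101a replicates 1 to 4 and miR-29a replicates 1, 2 and 4, chosen by their labels. miR-29a replicate 3 was set aside because its counts deviate with gene length, and the effect of adding it back is given beside the results it changes. The question is which transcripts tell the 2 microRNAs apart at the same dose.

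MicroRNAs are short RNAs loaded into Argonaute proteins. They pair with sites that are mostly in the 3′ untranslated ends of messenger RNAs, which are then less stable or less translated. miR-29 is known in mammals for its sites in collagen and other matrix genes, and for its sites in DNA methyltransferase genes. miR-101 is known in mammals for its sites in EZH2, the methyltransferase of Polycomb repressive complex 2, and in PTGS2, the inducible cyclooxygenase. A direct comparison of 2 treated groups shows differences between the treatments and not which of them moved a transcript. The levels of the untreated control group are therefore given beside many, but not all, of the genes described.

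All groups were wild-type animals at an age of 2 days. The treated groups had 2 ng of miR-101a or 2 ng of miR-29a, and the control group had no perturbation. The route of delivery is not in the labels, which name no group that received an unrelated small RNA, and do not call the replicates separate clutches, so the p-values measure only the spread between these libraries, which may be technical. Because whole animals were used, fewer cells of a type and less RNA per cell cannot be told apart.

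The 7 libraries held 19804199 to 30383374 gene counts. Cytosolic ribosomal protein genes took 8.61 ± 0.458% of counts in miR-101a (SD, n = 4) and 7.99 ± 0.289% in miR-29a (n = 3), an exact two-sided permutation p of 0.114 where 0.0571 is the smallest possible. The 50 most abundant genes took 19.6 ± 1.16% and 17.0 ± 0.404% (exact p = 0.0571). In miR-29a replicate 3 the ribosomal share was 15% and the Spearman correlation across genes between its deviation from its group and gene length was -0.418, against -0.172 to 0.236 in the other treated libraries. Markers of muscle, skin, nerve, eye, liver, blood and pigment cells were present in every library.

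Of 20682 genes tested with edgeR's quasi-likelihood test, 8131 (39.3%) differed at a Benjamini-Hochberg adjusted p under 0.05. The calls split evenly under TMM scaling, with 4067 genes (19.7%) higher in miR-101a and 4064 (19.6%) higher in miR-29a. The split still leaned with gene length in these 7 libraries. In length decile 1, the shortest genes, 354 were higher in miR-101a and 224 higher in miR-29a (median log2 difference 0.0531). In decile 10, the longest, the counts were 407 and 504 (median -0.0377). Most differences were small. The median absolute log2 difference of a called gene was 0.486, and 6.46% of genes tested were called and at least 2-fold apart, 809 of them higher in miR-101a and 527 higher in miR-29a. Differences are given as log2 of miR-101a over miR-29a, so that positive values are higher in miR-101a, and levels as CPM, counts scaled to a common library size with TMM factors. The share called rose with level, from 19.2% of the 2026 genes tested below 1 CPM to 50.4% of the 1695 with a mean of at least 100 CPM. The median absolute log2 difference of a called gene was 1.3 in the former and 0.304 in the latter. These medians cover called genes only. At low counts only larger differences can be called, so the medians do not show that scarce transcripts differed more. The library kit does not mark strand, so reads of overlapping genes on opposite strands cannot be told apart, and values of close copies (keratins, crystallins, apolipoproteins, cathepsins, Hox pairs and symbols printed with an identifier) are uncertain where they share reads.

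The number of calls rests on which miR-29a libraries are used. With miR-29a replicate 3 added, 941 genes were higher in miR-101a and 950 higher in miR-29a, 9.19% of those tested, and 1890 of these calls were also made without it in the same direction. No gene was called in opposite directions with and without replicate 3. Leaving out 1 library at a time left 3018 to 3949 genes higher in miR-101a and 3019 to 3910 higher in miR-29a, the fewest without miR-29a replicate 4. The split was uneven with another tool, scale and offset together. There limma was run on log2 RPKM recomputed from raw library totals, without TMM or similar scaling, and called 3107 and 5091 genes. Of its calls 37.9% were higher in miR-101a, against 50% with edgeR, 51.4% with RLE scaling and 51.5% with gene length offsets. Its median log2 difference over all genes was -0.0683. Which of these changes made the split uneven was not tested.

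**Figure D1:**
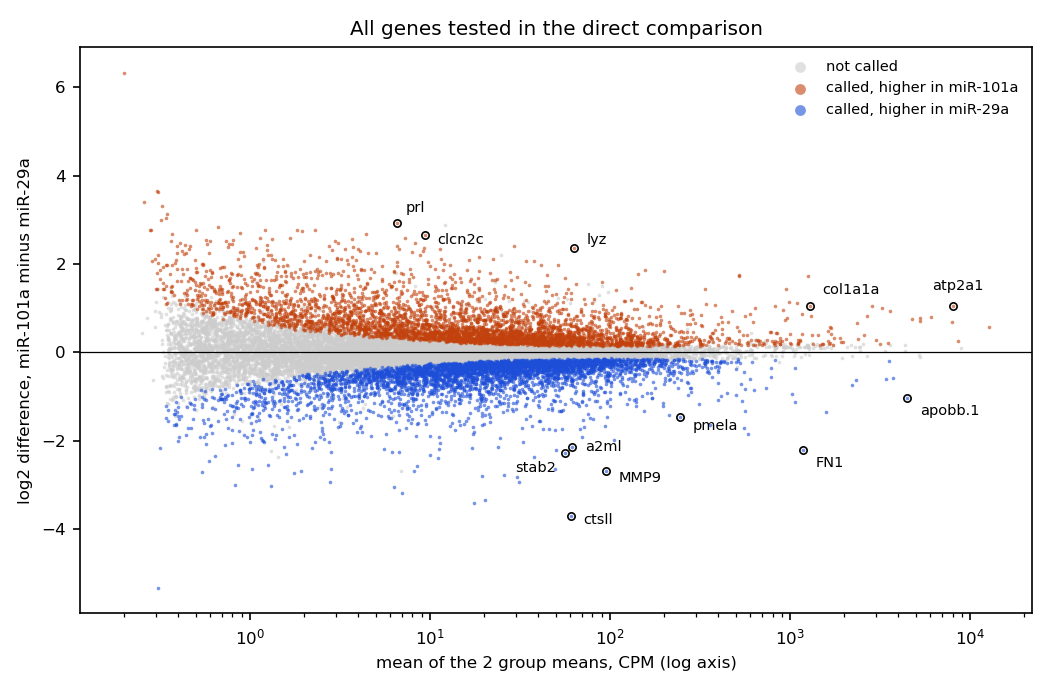
Log2 difference of every gene tested against the mean of the 2 group means in CPM on a log axis. Orange genes were called higher in miR-101a (4067), blue genes higher in miR-29a (4064) and grey genes were not called. Circles mark genes described in the text, from ctsll at -3.70 to prl at 2.93.

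In 9430 genes no miR-101a library overlapped a miR-29a library (45.6% of those tested). Among these, named genes whose higher group averaged 5 CPM or more were ranked by their log2 difference. Of the 12 largest that were higher in miR-101a, 11 are described. They came mainly from the eye, the pituitary and other hormone cells, and ion transport. The 11 were the hormone genes prl and sst1.2, the photoreceptor genes ARR3 (ENSDARG00000056511), six7, crx and rbp3, the chloride channel clcn2c, the ion cotransporter slc12a10.2, CYP4V2 (ENSDARG00000062132), notum2 and lyz. The control mean was between the group means in 7 of them and above both in 4.

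prl, which encodes the pituitary hormone prolactin, had 10.8, 10.9, 14.2 and 10.8 CPM in miR-101a replicates 1 to 4 and 0.498, 3.82 and 0.321 CPM in miR-29a replicates 1, 2 and 4. The groups did not overlap, and miR-29a replicate 2 lay well above the other 2 libraries of its group. The difference was 2.93 ± 0.71 (SE, n = 4 and 3, edgeR adjusted p = 0.0228). It rose to 4.85 without miR-29a replicate 2, and the call was lost without any 1 of the miR-101a replicates (adjusted p = 0.0522, 0.0534, 0.0562 and 0.0518). Controls had 3.35 to 4.28 CPM, between the groups.

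The cone gene ARR3, an arrestin that ends the light response, had 6.95, 7.2, 5.5 and 5.55 CPM in miR-101a, 0.633, 2.16 and 0.427 CPM in miR-29a and 4.65 to 5.64 CPM in controls, without overlap between the treated groups (2.56 ± 0.42, adjusted p = 0.00177). For rbp3, the retinoid carrier between retina and pigment epithelium, the ranges were 4.75 to 6.78 and 0.713 to 1.91 CPM (2.35 ± 0.29, adjusted p = 0.00011). Its controls had 1.62 to 2.21 CPM. The photoreceptor regulators six7 and crx were also higher in miR-101a, by 2.38 ± 0.39 and 2.36 ± 0.65, but both lay below the controls in all libraries of both groups (8.93 to 11.1 and 31.2 to 46.5 CPM).

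The crx call was the less firm of these. Its miR-29a values were 0.362, 5.81 and 2.78 CPM against 12.2, 19.9, 17.7 and 12.8 CPM, and adjusted p was 0.0359. It was lost without any 1 of the miR-101a replicates or miR-29a replicate 4 (adjusted p = 0.0638, 0.082, 0.0796, 0.0662 and 0.121), and with miR-29a replicate 3, at 15.8 CPM, the difference was 1.33 (adjusted p = 0.379).

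The chloride channel gene clcn2c had 14.2, 18.4, 17.8 and 14.2 CPM in miR-101a, 1.22, 4.89 and 1.57 CPM in miR-29a and 3.99 to 5.89 CPM in controls, a log2 difference of 2.65 ± 0.44 (adjusted p = 0.00393). slc12a10.2, a sodium chloride cotransporter of skin ionocytes, had 16.1, 21.5, 21.5 and 16.8 against 2.71, 6.31 and 2.25 CPM, with controls at 6.2 to 6.38 CPM (2.34 ± 0.35, adjusted p = 0.002). Both were above every control in all 4 miR-101a libraries. Their lack of overlap between the treated groups follows from the ranking, which took only such genes. sst1.2, a somatostatin gene, had 11.2 to 14.0 CPM against 0.784 to 4.52 CPM, with miR-29a replicate 2 the highest of its group and controls at 6.83 to 7.21 CPM (2.60 ± 0.56, adjusted p = 0.0132). CYP4V2, a fatty acid hydroxylase, stood at 6.43 to 8.87 and 0.606 to 2.12 CPM, with controls above both at 10.5 to 12.9 CPM (2.67 ± 0.33, adjusted p = 0.00021).

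lyz, the lysozyme of neutrophils, was at 93.9, 104, 107 and 121 CPM in miR-101a, close to the 89.0 to 95.0 CPM of controls, and at 9.54, 43.8 and 8.69 CPM in miR-29a. Its difference of 2.37 ± 0.64 (adjusted p = 0.0363) was not called in most comparisons that left out 1 library, with adjusted p of 0.0714, 0.0785, 0.0746, 0.0766, 0.0981 and 0.0916 without miR-101a replicates 1 to 4 and miR-29a replicates 1 and 4 in turn, nor when miR-29a replicate 3 was added (0.101). It was called without miR-29a replicate 2 (3.55). notum2, a member of the Notum family of secreted enzymes, had 7.64, 16.4, 15.9 and 15.8 CPM against 1.04, 5.06 and 1.39 CPM, with controls above both at 17.4 to 21.2 CPM (2.48 ± 0.60, adjusted p = 0.023). It was not called when leaving out miR-101a replicate 2, 3 or 4 or miR-29a replicate 4 (adjusted p = 0.0558, 0.0589, 0.0575 and 0.0785). In 11 of these 11 genes miR-29a replicate 2 was the highest of its 3 libraries, so it stood nearest to miR-101a.

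The 12 largest that were higher in miR-29a held lysosomal enzymes, inflammation and complement genes, matrix genes and the engrailed homeobox genes. They were ctsll, ACP5, DAO (ENSDARG00000035602), gnsb, MMP9, c7b, both EN2 genes, stab2, CIDEC, FN1 (ENSDARG00000006526) and irg1l. All 12 were called in every comparison that left out 1 library, and also with miR-29a replicate 3 added. They were picked as called genes without overlap in these same libraries, so the former is no separate support for them. For gnsb, replicate 3 itself lay on the other side, below every miR-101a library. The control mean was below both group means in 6 of them, between the group means in 3 and above both in 3.

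ctsll, a cathepsin L-like protease gene, had 15.4, 4.54, 5.77 and 8.07 CPM in miR-101a and 120.1, 89.5 and 129 CPM in miR-29a, with 2.84 to 3.78 CPM in controls. This was the largest fold of the ranked genes in either direction, 13-fold, and miR-101a replicate 1 was the highest of its group (-3.70 ± 0.42, adjusted p = 0.00152). gnsb, a sulfatase that breaks down sulfated sugar chains in lysosomes, had 7.64, 5.06, 5.19 and 8.03 against 56.2, 39.4 and 39.6 CPM (-2.78 ± 0.20, adjusted p = 2.6e-05). In miR-29a replicate 3 it had 4.2 CPM, below every miR-101a library and near the 3.89 to 5.8 CPM of controls. ACP5, an acid phosphatase that marks osteoclasts and some macrophages, had 14.9, 4.12, 4.08 and 4.92 against 65.0, 50.6 and 50.9 CPM (-2.93 ± 0.50, adjusted p = 0.00743). It lay below the control level of 85.8 to 118 CPM in all 7 libraries, as did DAO, the D-amino acid oxidase (2.35 to 9.84 against 25.7 to 39.8 CPM, controls 85.5 to 100.7 CPM, -2.80 ± 0.49, adjusted p = 0.00788).

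FN1, a gene for the matrix glycoprotein fibronectin, had 405, 409, 417 and 442 CPM in miR-101a and 1877, 1721 and 2246 CPM in miR-29a. Controls had 141 to 179.5 CPM, below every treated library, and miR-29a replicate 3 had 666 CPM. The libraries of each group were close together and the difference was -2.22 ± 0.08 (adjusted p = 5e-09). A second fibronectin gene, FN1 (ENSDARG00000019815), had 210.5, 203, 192 and 226 against 352, 314 and 339 CPM (-0.69 ± 0.06, adjusted p = 5.5e-06), a call lost with miR-29a replicate 3 (adjusted p = 0.142). MMP9, a gelatinase secreted by leukocytes and injured tissue, had 29.2, 19.3, 33.96 and 19.5 against 210.4, 78.9 and 207 CPM and 6.83 to 8.57 CPM in controls (-2.69 ± 0.44, adjusted p = 0.00628). miR-29a replicate 2 had less than the other libraries of its group and still more than every miR-101a library.

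The engrailed genes mark the boundary of midbrain and hindbrain. EN2 (ENSDARG00000038868) had 4.99, 2.45, 3.38 and 3.16 CPM in miR-101a and 17.8, 14.1 and 24.1 CPM in miR-29a, and EN2 (ENSDARG00000026599) had 3.82, 2.66, 3.58 and 3.24 and 14.9, 13.5 and 21.9 CPM. Controls had 17.4 to 20.03 and 19.9 to 20.8 CPM, so the miR-29a libraries lay around the control level and all miR-101a libraries far below it. The differences were -2.39 ± 0.24 and -2.32 ± 0.18 (adjusted p = 0.0001 and 3.4e-06). stab2, a scavenger receptor of venous and lymphatic endothelium, had 16.6 to 21.3 CPM against 84.0 to 102 CPM, with controls between them at 29.9 to 34.1 CPM (-2.28 ± 0.09, adjusted p = 5e-09). c7b, a complement gene, CIDEC, a lipid droplet protein, and irg1l, a gene induced in inflamed epithelium and macrophages, stood at -2.58 ± 0.37, -2.26 ± 0.16 and -2.22 ± 0.44 (adjusted p = 0.00146, 9.1e-07 and 0.0125).

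**Figure D2:**
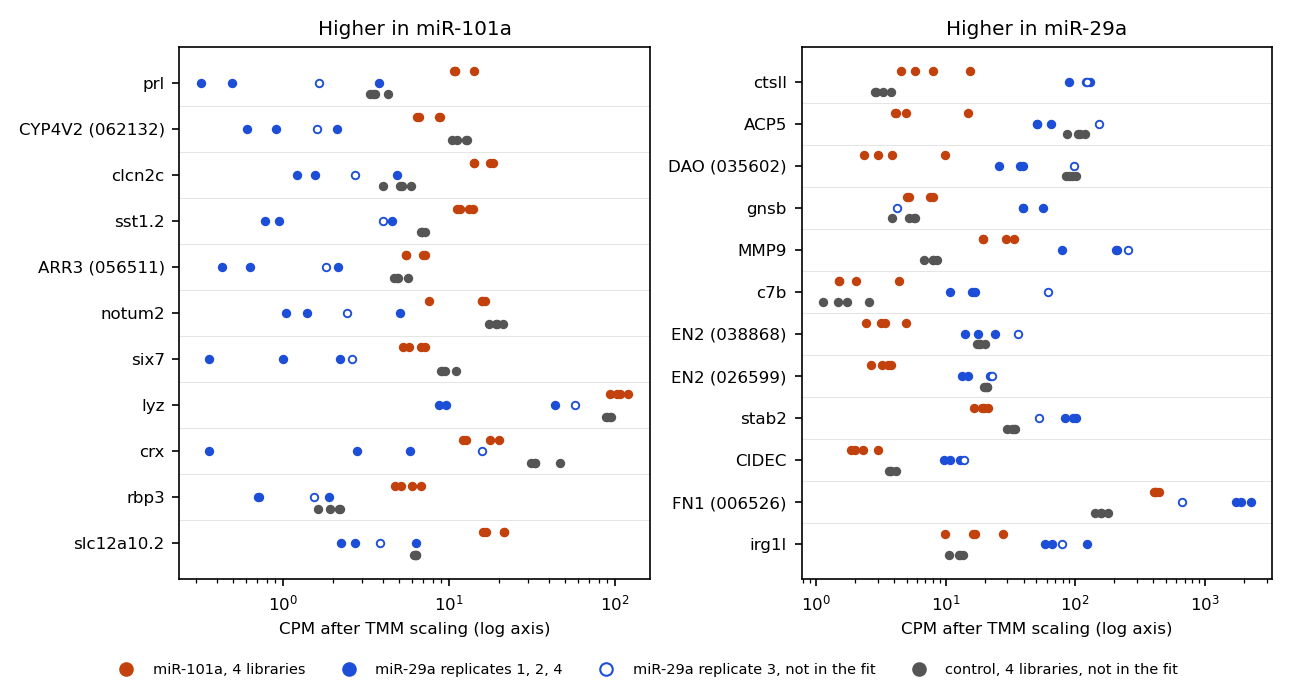
CPM per library on a log axis for 11 of the 12 genes with the largest log2 difference that were higher in miR-101a and the 12 that were higher in miR-29a; the last digits of the identifier stand beside symbols shared by several genes. Orange points are miR-101a, filled blue points miR-29a replicates 1, 2 and 4, open blue points miR-29a replicate 3 and grey points controls. Orange and filled blue points do not overlap in any gene shown, because only such genes were ranked. Open points lie on the miR-29a side of every orange point in 10 of 11 genes on the left and 11 of 12 on the right.

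Where the libraries agreed most closely other genes led. Ranked by p after the values were seen, the lead genes higher in miR-29a were FN1 and stab2, described above, the protease inhibitor a2ml, the complement gene c3a.1, the pyruvate carboxylase gene PC (ENSDARG00000051939), the melanosome gene pmela, the carbonic anhydrase CA6 (37.6 to 45.0 against 107 to 133 CPM, -1.51 ± 0.08), the metalloproteinase mmp30, the protein kinase C delta gene PRKCD (ENSDARG00000070651), and ACO1, the cytosolic aconitase that also binds iron response elements. a2ml had 23.5, 24.7, 21.8 and 21.6 CPM in miR-101a and 99.0, 89.0 and 114 CPM in miR-29a (-2.13 ± 0.08, adjusted p = 5e-09). PC had 30.3, 28.8, 27.7 and 30.2 against 126, 93.5 and 113 CPM (-1.93 ± 0.09, adjusted p = 1e-07). In a2ml and PC the miR-29a libraries lay near or below the controls (108 to 129 and 125 to 169 CPM) and the miR-101a libraries far below, and in PRKCD the values were 15 to 15.7 against 34.2 to 40.0 CPM with controls at 35.1 to 38.5 CPM. The pattern was another one for mmp30, at 9.04 to 12.1 against 36.3 to 44.0 CPM with controls at 10.7 to 16.1 CPM, within or above the miR-101a level.

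In the other direction the smallest p belonged to tns2b, a tensin gene that links integrins to actin, with 64.0, 63.0, 63.5 and 60.5 CPM in miR-101a, 24.7, 30.6 and 28.3 CPM in miR-29a and 30.6 to 33.5 CPM in controls (1.17 ± 0.07, adjusted p = 3.3e-07). ITGB1 (ENSDARG00000022689), an integrin beta 1 chain, had 65.8 to 72.9 against 27.6 to 36.2 CPM (1.13 ± 0.08), and NID1 (ENSDARG00000068710), the basement membrane protein nidogen, 138 to 148 against 78.3 to 91.3 CPM (0.78 ± 0.06). MFSD4A (ENSDARG00000008263), a membrane transporter gene, was at 22.5, 23.3, 21.9 and 22.1 against 5.61, 7.43 and 7.95 CPM (1.67 ± 0.11, adjusted p = 4.9e-07). The others of this set were CHRNE, USP2, AHSA1 (ENSDARG00000028664), SERP1 (ENSDARG00000076223), fxyd11 and the long noncoding RNA linc-epb41l4a, with differences of 0.90, 0.87, 0.96, 0.75, 1.18 and 0.82. Of the 10 genes ranked by p in each direction, 10 of 10 were called whichever single library was left out. Because they were picked by p in these same libraries, this is no separate support for them. With miR-29a replicate 3, 8 of those higher in miR-101a and 9 of those higher in miR-29a were called; fxyd11, SERP1 and ACO1 were not (adjusted p = 0.351, 0.484 and 0.251).

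By the size of the difference in CPM, also ranked after the values were seen, muscle and skin transcripts led in miR-101a, and lipoproteins and secreted liver or yolk proteins in miR-29a. atp2a1, the calcium pump of fast muscle, had 9828, 11350, 12420 and 9691 CPM in miR-101a, 4004, 6022 and 5766 CPM in miR-29a and 8535 to 10490 CPM in controls (1.04 ± 0.15, adjusted p = 0.00041). The other 9 were krt4, actc1b, MYL11 (ENSDARG00000053254), tpma, ckmb, ckma, pvalb2, myhz1.1 and pvalb1, 8 muscle genes and a keratin of the skin surface. The fast myosin, parvalbumin and creatine kinase genes myhz1.1, pvalb1, pvalb2, ckma and ckmb differed by 1.003, 1.05, 0.93, 0.76 and 0.72, the tropomyosin tpma by 0.77, the actin actc1b by 0.69 and krt4 by 0.58. Only atp2a1 of these 10 was called with miR-29a replicate 3, where the differences of the other 8 muscle genes ran from 0.26 (actc1b) to 0.45 (MYL11), apart from myhz1.1 at 0.89 (adjusted p = 0.0556).

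apobb.1, the apolipoprotein B of yolk lipid export, had 3035, 3046, 2694 and 2971 CPM in miR-101a and 6145, 4969 and 6980 CPM in miR-29a, with 3325 to 4082 CPM in controls (-1.04 ± 0.10, adjusted p = 8.7e-06). FN1, apoa1a, apoa1b, apoeb, BHMT, ctsla, apoc1, c3a.1 and PSAP followed. apoeb, the apolipoprotein E of lipid uptake, had 848 to 973 against 1971 to 2623 CPM (-1.35 ± 0.09), with controls between the groups at 1348 to 1580 CPM. apoc1 had 605 to 718 against 1269 to 1602 CPM (-1.13 ± 0.08) and apoa1a 2787 to 3183 against 4116 to 4707 CPM (-0.57 ± 0.08), again with controls between the groups (1098 to 1147 and 3569 to 3905 CPM). The lysosomal genes ctsla and PSAP (prosaposin) had 1612 to 1967 and 685 to 760.0 CPM in miR-101a and 2438 to 3199 and 1211 to 1527 CPM in miR-29a, and every one of these values exceeded the controls (893 to 1131 and 558 to 602 CPM). With miR-29a replicate 3, 7 of the 10 remained called; apoa1a, apoa1b and BHMT did not (adjusted p = 0.108, 0.08 and 0.0562), although their differences of -0.96, -0.84 and -1.04 were larger than the -0.57, -0.60 and -0.73 without it.

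Gene lists were then read against the shares of all genes tested, 19.7% higher in miR-101a and 19.6% higher in miR-29a, with a median of -0.0109 over all genes. The counts are descriptions and no list was tested as a set. With miR-29a replicate 3 added, only 941 genes were called higher in miR-101a and 950 higher in miR-29a of 20567 tested, 9.19% in all. List counts given with replicate 3 stand beside these lower shares and not beside 19.7% and 19.6%.

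**Figure D3:**
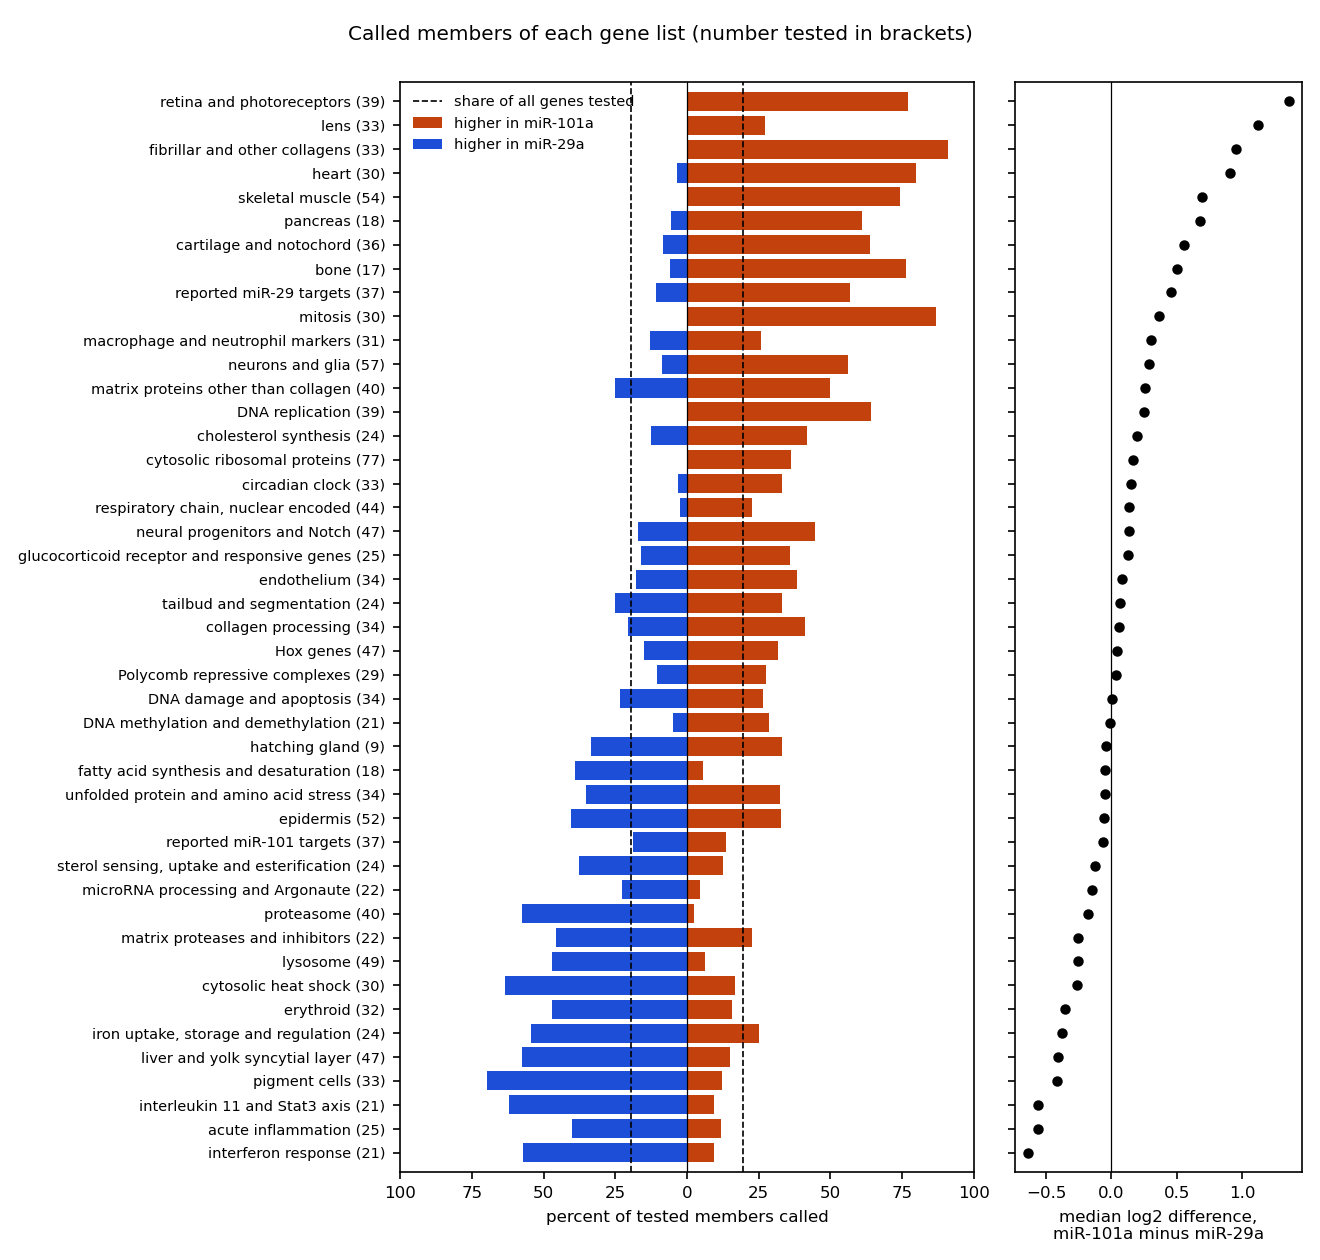
Left, percent of tested members of each of 45 gene lists called higher in miR-101a (orange, to the right) or higher in miR-29a (blue, to the left); dashed lines give the shares of all genes tested, 19.7% and 19.6%. Right, the median log2 difference of the same members. Lists are ordered by their median, from retina and photoreceptors (1.36) to the interferon response (-0.64).

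Reported miR-29 targets, taken from work in mammals, were more often lower than higher in miR-29a. Of 37 tested, 21 were higher in miR-101a and 4 higher in miR-29a, with a median of 0.45. With replicate 3 the counts were 14 and 1. Of the 37 genes, 12 are collagens described below, a class in which 30 of 33 were higher in miR-101a. As 21 is more than 12, some of the targets higher in miR-101a are not on the collagen list. None of the 4 higher in miR-29a is on it, because no collagen was called that way. The targets that are not collagens were not counted apart, so how far the list rests on collagens was not tested.  lamc1, a laminin chain, had 355, 376, 359 and 378 CPM in miR-101a, 176, 231 and 198 CPM in miR-29a and 258 to 299 CPM in controls (0.86 ± 0.08, adjusted p = 5.7e-06). DNMT3A (ENSDARG00000015566), a de novo DNA methyltransferase, was also higher in miR-101a (38.0 to 41.6 against 19.04 to 26.3 CPM, 0.81 ± 0.09). IREB2, the iron regulatory protein 2, was higher by 0.21 ± 0.06 (adjusted p = 0.0167), a call lost without miR-29a replicate 4 (adjusted p = 0.0658). DNMT3A and IREB2 were not called with replicate 3 (adjusted p = 0.083 and 0.213), where their differences were 1.103 and 0.19.

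Some reported miR-29 targets went the other way. loxl2a, a collagen crosslinking oxidase, had 24.8, 25.2, 20.6 and 22.4 CPM in miR-101a and 44.0, 42.3 and 46.4 CPM in miR-29a, with controls at 35.2 to 41.8 CPM (-0.93 ± 0.08, adjusted p = 2.2e-06). DNMT3B had 27.5 to 29.4 against 41.5 to 45.2 CPM with controls at 39.4 to 43.2 CPM (-0.59 ± 0.06), and the survival gene mcl1b 47.7 to 51.8 against 58.6 to 61.1 CPM with controls at 57.8 to 65.5 CPM (-0.26 ± 0.06). In all 3 genes the miR-29a libraries lay within or just beyond the control range and the miR-101a libraries below it. DNMT3B and mcl1b were not called with replicate 3 (adjusted p = 0.0716 and 0.194).

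Reported miR-101 targets did not stand out as a list. Of 37 tested, 7 (18.9%) were higher in miR-29a, near the share of all genes, 5 were higher in miR-101a and the median was -0.0616 (2 and 3 with replicate 3). EZH2 had 59.7, 66.7, 62.4 and 61.4 CPM in miR-101a, 53.4, 57.1 and 57.9 CPM in miR-29a and 96.0 to 100.9 CPM in controls. It was well below the controls in all 7 libraries, and the miR-101a values were the higher ones without overlap (0.15 ± 0.06, adjusted p = 0.0566, not called). PTGS2 (ENSDARG00000010276) had 4.95, 5.11, 5.58 and 3.8 against 11.1, 9.87 and 21.0 CPM, with miR-29a replicate 4 the highest and controls at 2.91 to 4.34 CPM (-1.53 ± 0.28, adjusted p = 0.00315). LMNB1, the nuclear lamin B1, had 179 to 207 against 246 to 279 CPM, both below the controls at 318 to 342 CPM (-0.42 ± 0.06, adjusted p = 0.00019). SUZ12 (ENSDARG00000070256), a partner of EZH2 in the same complex, and SOX9 (ENSDARG00000043923), a cartilage regulator, were higher in miR-101a (0.57 and 0.60). The DNMT3A gene and mcl1b given above are on this list as well as on that of miR-29 targets, and DNMT3A was higher and mcl1b lower in miR-101a.

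Collagens were higher in miR-101a almost throughout. Of 33 collagen genes tested, 30 (90.9%) were higher in miR-101a and 0 higher in miR-29a, with a median log2 difference of 0.96. Leaving out 1 library left 28 to 30 calls and adding miR-29a replicate 3 left 25. Several of these genes are also among the reported miR-29 targets. The summed collagen level was 11230, 12410, 12310 and 11360 CPM in miR-101a replicates 1 to 4 and 5214, 7022 and 5675 CPM in miR-29a replicates 1, 2 and 4, with 5969 CPM in replicate 3 and 12080 to 14660 CPM in controls. Every miR-29a library was below every other library.

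col1a1a, a chain of type I collagen, the main collagen of skin and bone, had 1653, 1835, 1843 and 1623 CPM in miR-101a, 743, 976 and 809 CPM in miR-29a and 2276 to 2497 CPM in controls (1.04 ± 0.09, adjusted p = 4.2e-06). COL1A2, the other chain, had 1115, 1253, 1331 and 1107 against 524, 697 and 637 CPM (0.96 ± 0.10, adjusted p = 2.5e-05). Both chains were lowest in miR-29a replicate 1 and did not overlap between groups. COL2A1 (ENSDARG00000011407), the cartilage and notochord collagen, had 472 to 569.6 against 217 to 299 CPM (1.07 ± 0.11), col6a1, of the microfibrils around cells, 165 to 172 against 90.2 to 113 CPM (0.78 ± 0.07), and COL5A2, which sets the width of type I fibrils, 326 to 357 against 203 to 235 CPM (0.65 ± 0.06).

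**Figure D4:**
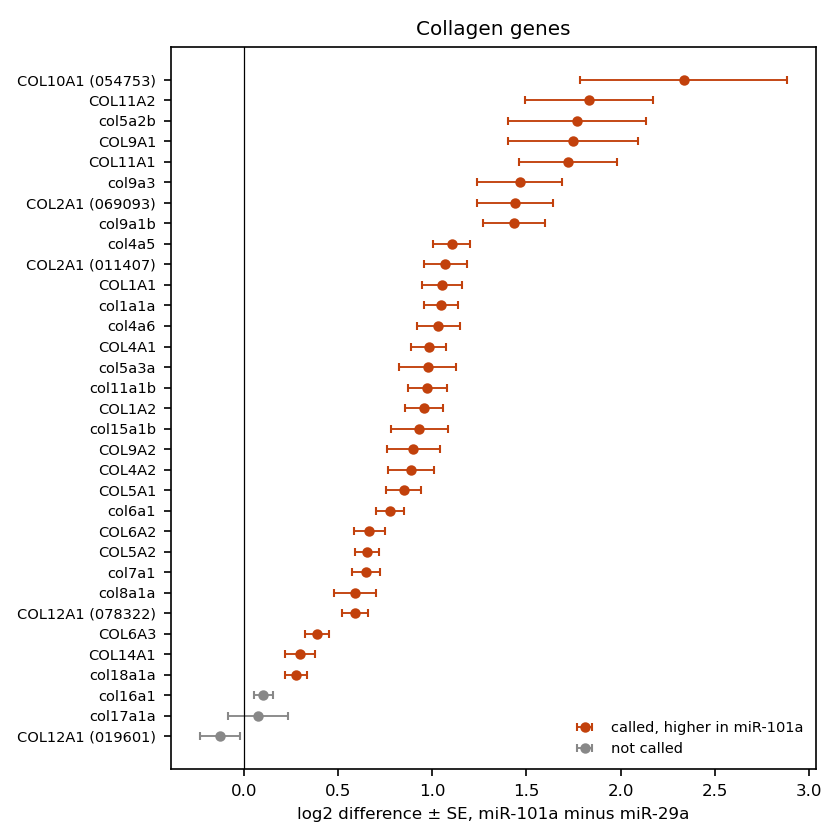
Log2 difference with its SE for the 33 collagen genes tested, miR-101a minus miR-29a. Orange genes were called higher in miR-101a (30) and grey genes were not called; no collagen was called higher in miR-29a.

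Other matrix genes were divided. Of 40 tested, 20 were higher in miR-101a and 10 higher in miR-29a (median 0.26). The latter count was 6 without miR-29a replicate 1, 6 without replicate 4 and 3 with replicate 3, where the former was 12. POSTN (ENSDARG00000104267), the fibril-binding periostin, had 1176 to 1288 CPM in miR-101a and 654 to 811 CPM in miR-29a (0.79 ± 0.08), and THBS4 (ENSDARG00000020072), a tendon thrombospondin, 88.4 to 95.0 against 109 to 134 CPM (-0.46 ± 0.07). The 2 fibronectin genes and this thrombospondin thus stood opposite to the laminin, nidogen and periostin genes named here.

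Matrix proteases and inhibitors, counted together, were more often higher in miR-29a, 10 of 22 against 5 higher in miR-101a (median -0.25). With miR-29a replicate 3 the counts were 9 and 1, and the genes higher in miR-101a numbered 3, 2 and 2 without miR-101a replicate 2 and miR-29a replicates 1 and 4. MMP14 (ENSDARG00000008388), the membrane-bound activator of MMP2, had 58.0, 56.5, 50.6 and 51.0 CPM in miR-101a and 125, 103 and 119 CPM in miR-29a, with controls between them at 75.7 to 82.3 CPM (-1.096 ± 0.07, adjusted p = 7.2e-07). MMP2 itself, a gelatinase of connective tissue, had 164 to 177 against 242 to 278 CPM and 154 to 166 CPM in controls (-0.59 ± 0.06). In the other direction mmp25b stood at 8.15 to 9.41 against 3.56 to 5.56 CPM (0.92 ± 0.15).

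Among enzymes and chaperones that process collagen, 14 of 34 were higher in miR-101a and 7 higher in miR-29a (median 0.0563; 3 and 1 with replicate 3). LOXL2, a second crosslinking oxidase beside loxl2a, was higher in miR-101a, 49.3 to 55.7 against 28.1 to 38.4 CPM (0.72 ± 0.10), opposite to loxl2a. PLOD2, a lysyl hydroxylase of collagen ends, was higher in miR-29a, 14.9 to 17.5 against 25.1 to 30.4 CPM (-0.77 ± 0.08, adjusted p = 1.7e-05; 0.113 with replicate 3).

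Cartilage, notochord and bone markers were mostly higher in miR-101a. Of 36 cartilage and notochord genes 23 were higher in miR-101a and 3 higher in miR-29a (median 0.55; 11 and 1 with replicate 3), and of 17 bone genes 13 and 1 (median 0.51; 6 and 1). Some of these genes are also in the collagen list. PHEX, the phosphate-regulating peptidase of bone, had 49.99, 54.9, 52.8 and 51.2 CPM against 25.7, 34.7 and 25.1 CPM, with controls at 42.4 to 48.7 CPM (0.87 ± 0.10, adjusted p = 4.5e-05). enpp1, which limits mineralization, differed by 0.46 ± 0.06. The bone gene that was higher in miR-29a was ACP5, given above. ihhb, a hedgehog signal of cartilage, was higher in miR-29a at 3.79, 2.4, 2.15 and 3.64 against 6.51, 7.51 and 6.24 CPM (-1.16 ± 0.19, adjusted p = 0.00034; 0.403 with replicate 3), as was CAV1, caveolin 1 of the notochord (118 to 134 against 159.7 to 176 CPM, -0.37 ± 0.06).

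Muscle markers were higher in miR-101a as a block. Of 54 skeletal muscle genes tested 40 (74.1%) were higher in miR-101a and 0 higher in miR-29a, with a median of 0.69. Their summed level was 71140, 86650, 88690 and 70800 CPM in miR-101a and 39920, 50950 and 47770 CPM in miR-29a. All 3 miR-29a libraries lay below all miR-101a libraries, while miR-29a replicate 3 had 95940 CPM and controls 85630 to 99980 CPM. With replicate 3 added 10 genes were called higher in miR-101a, and without miR-101a replicate 1 or 2 there was 1 gene higher in miR-29a. The share of counts on the 50 most abundant genes, given above, was also higher in miR-101a; its part in the result was not tested.

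The acetylcholine receptor genes CHRNE and CHRNA1 and the regulator MEF2C were called with or without replicate 3. CHRNE, a subunit of the receptor at the nerve and muscle synapse, had 64.8, 68.0, 68.4 and 70.13 CPM in miR-101a, 32.9, 40.0 and 35.9 CPM in miR-29a and 40.0 to 47.8 CPM in controls (0.90 ± 0.07, adjusted p = 1.5e-06). CHRNA1, another subunit, had 76.2, 85.7, 93.3 and 79.8 against 44.6, 51.5 and 44.8 CPM, with controls at 49.6 to 57.4 CPM (0.83 ± 0.08, adjusted p = 6e-06). MEF2C (ENSDARG00000029764), a regulator of muscle genes, had 73.9, 64.3, 65.3 and 73.7 against 32.7, 42.2 and 36.5 CPM and 34.5 to 41.4 CPM in controls (0.90 ± 0.09, adjusted p = 8.6e-06). In all 3 genes the miR-101a libraries were the highest of the 3 groups.

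Heart genes followed, with 24 of 30 higher in miR-101a and 1 higher in miR-29a (median 0.91; 6 and 1 with replicate 3). myl4, a myosin light chain of the atrium, had 6.98, 7.2, 6.5 and 8.47 against 2.67, 3.73 and 2.46 CPM (1.305 ± 0.16, adjusted p = 4.7e-05), and atp2a2a, the calcium pump of heart muscle, 30.6 to 34.1 against 17.8 to 21.6 CPM (0.70 ± 0.08). GATA6, a regulator of heart and endoderm, was the one higher in miR-29a, at 26.2, 24.1, 23.4 and 24.1 CPM against 37.0, 31.1 and 32.0 CPM with controls at 18.03 to 20 CPM (-0.45 ± 0.08, adjusted p = 0.0005).

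**Figure D5:**
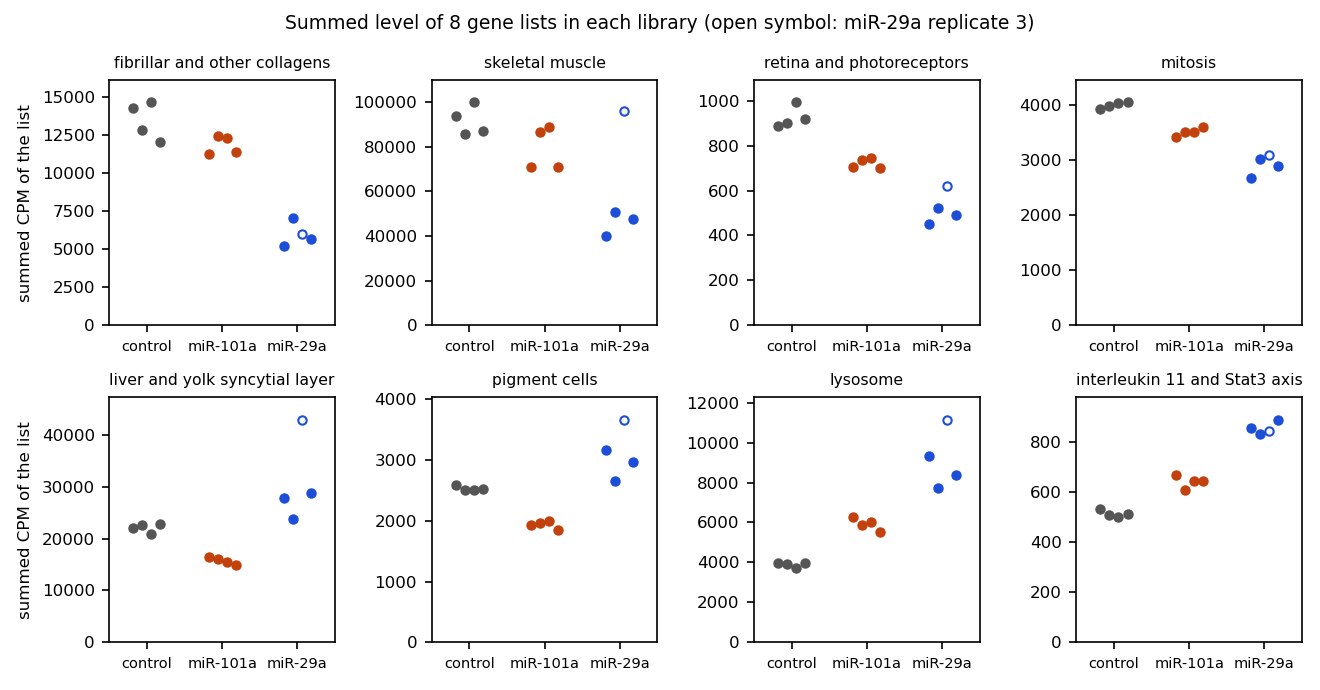
Summed CPM of 8 gene lists in each of the 12 libraries, by group; the open symbol is miR-29a replicate 3, which is not in the comparison. Orange miR-101a libraries and filled blue miR-29a libraries do not overlap in any of the 8 lists. The 8 were chosen for display, and the lack of overlap is not particular to them. Lists not shown also lacked overlap, such as the proteasome list, and others overlapped, such as the endothelium list. Replicate 3 lies within the range of its group for collagens (5969 CPM), just above it for mitosis (3089 CPM) and with the controls for skeletal muscle (95940 CPM).

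Eye genes were higher in miR-101a without exception among the calls. Of 39 retina and photoreceptor genes 30 (76.9%) were higher in miR-101a and 0 higher in miR-29a, with a median of 1.36 (13 with replicate 3). saga, a rod arrestin, had 2.76, 2.66, 3.35 and 2.64 CPM against 0.407, 0.664 and 0.356 CPM (2.58 ± 0.25, adjusted p = 7.1e-06), and was above the control range of 1.11 to 1.48 CPM in every miR-101a library and below it in every miR-29a library. SIX3 (ENSDARG00000054879), a regulator of the eye field, had 34.9 to 39.1 against 17.5 to 21.8 CPM (0.94 ± 0.08; adjusted p = 0.117 with replicate 3). The summed level of the list was 701 to 746 CPM in miR-101a, 451 to 522 CPM in miR-29a and 888 to 993 CPM in controls.

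Lens genes had a median of 1.12, and the miR-29a libraries differed among themselves. Their summed level was 1011, 1143, 1279 and 990.0 CPM in miR-101a, 164, 708 and 481 CPM in miR-29a replicates 1, 2 and 4, 1339 CPM in replicate 3 and 2565 to 3721 CPM in controls. Of 33 tested 9 were called, all higher in miR-101a. This count was 4, 5 and 5 without miR-101a replicates 2, 3 and 4, 17 and 17 without miR-29a replicates 1 and 2, and 1 with replicate 3. The lens regulator pitx3 had 16.1 to 20.8 against 8.6 to 11.7 CPM (0.90 ± 0.12, adjusted p = 7.7e-05; 0.102 with replicate 3).

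In the nervous system 32 of 57 neuron and glia genes were higher in miR-101a and 5 higher in miR-29a (median 0.29; 8 higher in miR-29a without miR-101a replicate 4; 9 and 1 with replicate 3). nefla, a neurofilament gene, had 4.16, 6.26, 5.23 and 4.32 CPM against 0.678, 1.53 and 1.14 CPM (2.13 ± 0.24, adjusted p = 2.4e-05). GRIN1 (ENSDARG00000025728), a glutamate receptor subunit, was higher in miR-29a, 18.6 to 20.4 against 28.2 to 33.3 CPM with controls at 22.9 to 28.3 CPM (-0.66 ± 0.08, adjusted p = 2.5e-05).

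Among genes of neural progenitors, 21 of 47 were higher in miR-101a and 8 higher in miR-29a (median 0.13; 4 and 4 with replicate 3). The neuronal differentiation genes INSM1 (ENSDARG00000091756) and NEUROD4 and the Notch ligand dlc were higher in miR-101a (0.82 ± 0.08, 0.77 ± 0.08 and 0.60 ± 0.07). PAX7 (ENSDARG00000070818), of the dorsal nerve tube and neural crest, had 21.8, 19.9, 22.2 and 20.2 CPM in miR-101a and 49.2, 37.8 and 55.7 CPM in miR-29a, with controls between them at 29.3 to 33.3 CPM (-1.18 ± 0.11, adjusted p = 1.8e-05). PAX3 (ENSDARG00000028348), its close relative, stood at 1.98 to 2.83 against 4.89 to 6.38 CPM (-1.35 ± 0.17; adjusted p = 0.274 with replicate 3).

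Of 47 Hox genes, which pattern the body axis, 15 were higher in miR-101a and 7 higher in miR-29a (median 0.0442), but the former were 8 without miR-29a replicate 4 and 1 with replicate 3. HOXB6, HOXB8 and HOXC6 (ENSDARG00000070343), of the trunk, were higher in miR-101a (0.80 ± 0.11, 0.58 ± 0.07 and 0.50 ± 0.07), calls lost with replicate 3 (adjusted p = 0.442, 0.322 and 0.134). The tail-end genes HOXC11 and hoxc11b were higher in miR-29a, 7.95 to 9.44 against 11.6 to 14.97 CPM and 3.55 to 5.23 against 7.16 to 8.46 CPM (-0.60 ± 0.11 and -0.80 ± 0.14), also with replicate 3.

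Tailbud and segmentation genes gave 8 higher in miR-101a and 6 higher in miR-29a of 24 (median 0.0653; 5 and 5 higher in miR-101a without miR-29a replicates 1 and 4, 1 with replicate 3). vox, a ventral homeobox gene, had 4.45, 3.18, 5.12 and 4.28 CPM in miR-101a and 15.2, 10.9 and 12.9 CPM in miR-29a, both above the controls at 1.52 to 1.84 CPM (-1.60 ± 0.15, adjusted p = 6.2e-06). CYP26A1, which degrades retinoic acid, had 47.3, 38.1, 34.5 and 37.6 against 93.6, 80.2 and 84.3 CPM (-1.12 ± 0.10, adjusted p = 8.5e-06), and ALDH1A2, which makes it, 78.1 to 81.2 against 109 to 120.1 CPM (-0.50 ± 0.06). A breakdown gene and a synthesis gene of retinoic acid were thus both higher in miR-29a.

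Hormone, steroid and clock genes were more often higher in miR-101a. Of 18 pancreas genes 11 were higher in miR-101a and 1 higher in miR-29a (median 0.68; 7 and 2 without miR-101a replicate 3, 2 and 1 with miR-29a replicate 3). sst2, a somatostatin gene of the islets, had 3.22, 4.17, 4.77 and 3.88 CPM against 0.226, 1.25 and 0.285 CPM (2.77 ± 0.42, adjusted p = 0.00065). Glucocorticoid genes gave 9 and 4 of 25 (4 and 2 with replicate 3). STAR, which carries cholesterol into mitochondria for steroid synthesis, had 4.75, 4.75, 6.12 and 5.12 against 1.18, 1.7 and 0.748 CPM (2.12 ± 0.23, adjusted p = 1.5e-05; 0.0799 with replicate 3), and HSD11B2, which inactivates cortisol, 27.8 to 35.6 against 13.3 to 17.3 CPM (1.02 ± 0.11). Clock genes gave 11 and 1 of 33 (7 higher in miR-101a without miR-29a replicate 1, 4 with replicate 3), with the repressor NR1D1 at 2.59, 1.88, 1.46 and 2.44 against 0.271, 0.415 and 0.641 CPM (2.201 ± 0.32, adjusted p = 0.00013) and the repressor BHLHE41 the other way at 7.41 to 8.04 against 16.1 to 17.6 CPM (-1.103 ± 0.09).

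Cell division genes were higher in miR-101a. Of 30 mitosis genes 26 (86.7%) were higher in miR-101a and 0 higher in miR-29a (median 0.37), and of 39 DNA replication genes 25 and 0 (median 0.25). The summed level of mitosis genes was 3430, 3506, 3515 and 3609 CPM in miR-101a, 2670, 3032 and 2897 CPM in miR-29a and 3928 to 4055 CPM in controls, without overlap between the groups. espl1, separase, had 69.0, 67.9, 71.3 and 75.0 CPM against 39.3, 49.7 and 46.9 CPM (0.64 ± 0.08, adjusted p = 3.1e-05), and the replication licensing gene CDC6 48.6, 42.9, 51.9 and 45.8 against 29.9, 34.4 and 33.0 CPM (0.54 ± 0.08, adjusted p = 0.00011). Replication counts fell to 12 without miR-29a replicate 1, and with replicate 3 there were 2 mitosis and 0 replication calls. Tested against a minimum of 1.2-fold, 11 mitosis and 3 replication genes were called higher in miR-101a, beside 1992 of all 20682 genes tested. Most replication differences were thus too small to be called at that minimum. The summed mitosis level of replicate 3, 3089 CPM, was above the other miR-29a libraries and below every miR-101a library. Its summed replication level of 3411 CPM was above every miR-101a library (2894 to 3019 CPM), against 2308 to 2609 CPM in the other miR-29a libraries.

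Ribosomal protein genes gave 28 of 77 higher in miR-101a and 0 higher in miR-29a (median 0.17), a count that moved with single libraries. It was 14, 16 and 50 without miR-101a replicates 1, 3 and 4, 11 and 4 without miR-29a replicates 1 and 4, and 0 with replicate 3. Nuclear genes of the respiratory chain gave 10 and 1 of 44, and 0 and 0 with replicate 3. The 10 higher in miR-101a were 22.7% of the list, near the 19.7% of all genes tested. Without miR-101a replicates 2 and 3 and miR-29a replicates 1 and 4 the genes higher in miR-101a were 5, 4, 5 and 3. Those higher in miR-29a were 0 without miR-101a replicate 2 or miR-29a replicate 1 or 4.

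Chromatin genes had medians near that of all genes. Polycomb genes gave 8 higher in miR-101a and 3 higher in miR-29a of 29 (median 0.0373; 1 and 1 with replicate 3), DNA methylation genes 6 and 1 of 21 (median -0.00855; 2 and 0 with replicate 3, and 3 higher in miR-29a without miR-101a replicate 4 or miR-29a replicate 2). cbx7a, a subunit of Polycomb complex 1, had 19.9, 16.9, 18.3 and 17.0 CPM in miR-101a, 36.6, 33.9 and 34.7 CPM in miR-29a and 2.34 to 2.92 CPM in controls (-0.96 ± 0.08, adjusted p = 1.6e-06), so both treated groups lay above the controls and miR-29a the highest. MBD3, a subunit of the NuRD repressor complex, had 94.6, 100.3, 108 and 97.0 against 36.5, 53.3 and 40.2 CPM with controls at 106 to 113 CPM (1.203 ± 0.12, adjusted p = 3.8e-05). Of 22 genes of the microRNA pathway 1 was higher in miR-101a and 5 (22.7%) higher in miR-29a, the latter near the 19.6% of all genes tested. The number higher in miR-29a was 9 without miR-101a replicate 4, 2 without miR-101a replicate 2 or miR-29a replicate 4, 3 without any other single library and 0 with replicate 3. TNRC6A, the Argonaute partner that recruits deadenylases, stood at 228 to 263 against 315 to 347 CPM (-0.46 ± 0.06, adjusted p = 8.7e-05; 0.334 with replicate 3).

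Liver and yolk syncytial layer genes were higher in miR-29a. Of 47 tested 27 (57.4%) were higher in miR-29a and 7 higher in miR-101a, with a median of -0.41 (18 and 5 with replicate 3). Their summed level was 16370, 16040, 15490 and 14860 CPM in miR-101a and 27860, 23730 and 28760 CPM in miR-29a, with controls between them at 20870 to 22860 CPM. tfa, the iron carrier transferrin, had 312, 263, 228 and 233 CPM in miR-101a and 886, 837 and 819 CPM in miR-29a, all below the controls at 945 to 984 CPM (-1.71 ± 0.10, adjusted p = 9.1e-07). c3a.1, complement component 3, had 264, 266, 239 and 251 against 1003, 777 and 975 CPM with controls at 256 to 334 CPM, near the miR-101a level (-1.85 ± 0.08, adjusted p = 5.2e-08). MTTP, which loads lipid onto apolipoprotein B, went the other way, 14.1 to 16.9 against 8.37 to 9.62 CPM (0.77 ± 0.10, adjusted p = 6e-05), opposite to apobb.1.

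Lipid genes were called in both directions. Of 24 cholesterol synthesis genes 10 were higher in miR-101a and 3 higher in miR-29a (median 0.20). The former became 5 and 6 without miR-29a replicates 1 and 4 and 3 with replicate 3, and the latter 1 when miR-101a replicate 1, 2 or 4 or miR-29a replicate 1 or 4 was left out and 0 with replicate 3. EBP, a sterol isomerase, had 29.8, 26.2, 37.2 and 28.2 CPM against 15.3, 18.2 and 14.0 CPM, all above the controls at 4.0 to 5.37 CPM (0.94 ± 0.13, adjusted p = 0.00019), while FDPS, which makes farnesyl diphosphate, was higher in miR-29a, 95.3 to 119 against 136 to 147 CPM (-0.38 ± 0.07, adjusted p = 0.00082; 0.0543 with replicate 3).

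Sterol sensing, uptake and esterification genes gave 9 higher in miR-29a and 3 higher in miR-101a of 24 (median -0.13; 4 and 0 with replicate 3). The differences of these genes ran from -2.15 to 1.74, so the list did not move together, and the 2 genes named next stand for 1 direction only. abca1b, a cholesterol exporter, had 194, 207, 198 and 192 CPM in miR-101a and 409, 321 and 372 CPM in miR-29a (-0.89 ± 0.07, adjusted p = 1.8e-06), and NPC2 (ENSDARG00000090912), which moves cholesterol out of lysosomes, 93.0 to 119 against 175 to 222 CPM (-0.98 ± 0.10). Fatty acid genes gave 7 higher in miR-29a and 1 higher in miR-101a of 18 (4 and 2 of the latter without miR-101a replicate 4 and miR-29a replicate 1; 2 and 0 with replicate 3). The elongase ELOVL6 had 30.5, 31.6, 29.1 and 32.4 against 62.2, 47.8 and 60.4 CPM (-0.88 ± 0.09, adjusted p = 7.6e-06). FADS3, a desaturase, had 72.2, 65.1, 78.0 and 51.5 against 62.2, 64.1 and 66.2 CPM, overlapping between groups and far above the controls at 3.17 to 5.06 CPM (0.06 ± 0.12, adjusted p = 0.747).

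Lysosomal genes that were called were mainly higher in miR-29a. 23 of 49 were higher in miR-29a and 3 higher in miR-101a (median -0.25; 5 of the latter without miR-29a replicate 1; 15 and 0 with replicate 3). Summed, they reached 6255, 5870, 6010 and 5499 CPM in miR-101a and 9324, 7732 and 8391 CPM in miR-29a, against 3739 to 3995 CPM in controls, so both groups lay above the controls and miR-29a the further. CTSH, a cathepsin, had 17.6, 17.7, 18.9 and 15.5 CPM against 49.2, 38.7 and 40.2 CPM (-1.29 ± 0.09, adjusted p = 9.1e-07), CTSC, another, 31.6 to 36.9 against 62.6 to 72.9 CPM (-0.98 ± 0.07) and LIPA, the acid lipase, 117 to 126 against 168 to 205 CPM (-0.61 ± 0.07).

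Protein turnover and stress genes followed with smaller differences. Of 40 proteasome genes 23 were higher in miR-29a and 1 higher in miR-101a (median -0.18; 14 without miR-29a replicate 1, 2 with replicate 3), and of 30 heat shock genes 19 and 5 (median -0.27; 11 and 12 without miR-101a replicate 1 and miR-29a replicate 4, 3 higher in miR-101a without miR-29a replicate 1, 6 and 1 with replicate 3). Tested against a minimum of 1.2-fold, 2 proteasome and 7 heat shock genes were called higher in miR-29a, beside 1782 of all 20682 genes tested. PSME1, a proteasome activator subunit, had 3.09, 3.7, 3.23 and 3.84 CPM against 8.87, 6.89 and 9.55 CPM, all above the controls at 0.7 to 1.13 CPM (-1.29 ± 0.15, adjusted p = 2e-05). HSPB1, a small heat shock protein, had 30.7 to 33.3 against 48.5 to 53.2 CPM (-0.67 ± 0.06), and AHSA1, an Hsp90 cochaperone, 27.9 to 31.0 against 14.5 to 16.8 CPM in the opposite direction (0.96 ± 0.08).

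Unfolded protein and amino acid stress genes were split, 11 higher in miR-101a and 12 higher in miR-29a of 34 (3 and 3 with replicate 3). The amino acid response genes mthfd2 and sesn2 were higher in miR-101a (0.71 ± 0.07 and 0.86 ± 0.10), and EDEM1, of endoplasmic reticulum degradation, was higher in miR-29a (-0.50 ± 0.07). The DNA damage and apoptosis list, which holds sesn2, gave 9 and 8 of 34 (2 and 1 with replicate 3). BAX, which permeabilizes mitochondria in apoptosis, was higher in miR-29a, 41.7 to 44.7 against 62.4 to 77.0 CPM (-0.71 ± 0.07, adjusted p = 8.9e-06).

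Transcripts of the interleukin 11 and Stat3 axis were more often higher in miR-29a. Of 21 genes 13 were higher in miR-29a and 2 higher in miR-101a (median -0.56; 5 and 1 with replicate 3). JAK1, the kinase of these receptors, had 85.6, 77.6, 86.2 and 82.6 CPM in miR-101a and 186, 158 and 172 CPM in miR-29a, with controls at 67.8 to 77.8 CPM (-1.05 ± 0.06, adjusted p = 2.7e-07; 0.0799 with replicate 3). il6st, the shared receptor chain gp130, had 68.0, 55.3, 59.6 and 65.2 against 109.5, 99.0 and 107 CPM with controls at 29.7 to 38.3 CPM (-0.76 ± 0.07, adjusted p = 5.5e-06; 0.214), and SOCS3 (ENSDARG00000026611), the feedback inhibitor, 36.7 to 41.4 against 57.6 to 60.2 CPM with controls at 11.3 to 12.5 CPM (-0.56 ± 0.06). SOCS3 and il6st were above the controls in all 7 libraries.

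The ligand genes were scarce. il11b had 1.23, 0.157, 0.154 and 0.16 CPM in miR-101a, where replicate 1 stood apart, and 3.26, 1.66 and 4.38 CPM in miR-29a, without overlap, and was at 0 in every control (-2.73 ± 0.70, adjusted p = 0.0189). Without miR-101a replicate 1 the difference was -4.27, and leaving out miR-101a replicate 3 or miR-29a replicate 4 ended the call (adjusted p = 0.0503 and 0.0587). il11a had 0.598, 0.782, 0.808 and 1.199 against 1.58, 1.079 and 3.49 CPM, which overlap (-1.304 ± 0.40, adjusted p = 0.0228). It was not called with replicate 3 (adjusted p = 0.0797) or without miR-101a replicate 1, 2 or 3 or miR-29a replicate 4 (0.0614, 0.0544, 0.0638 and 0.167); without the last the difference was -0.65.

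Inflammation and interferon genes were more often higher in miR-29a. Acute inflammation gave 10 higher in miR-29a and 3 higher in miR-101a of 25 (median -0.56). The former count was 6 without miR-101a replicate 2 or miR-29a replicate 1 or 4 and 15 without miR-29a replicate 2, and the latter 0 and 1 without miR-29a replicates 1 and 4; with replicate 3 they were 6 and 0. The interferon response gave 12 and 2 of 21 (median -0.64; 6 and 0 with replicate 3). gbp1, a guanylate-binding protein, had 3.26, 4.59, 5.04 and 3.64 CPM against 10.9, 8.88 and 9.9 CPM (-1.27 ± 0.15, adjusted p = 3.1e-05) and trim25, a ubiquitin ligase of RNA sensing, 11.5 to 13.8 against 25.9 to 27.7 CPM (-1.097 ± 0.08). isg15, an interferon-induced ubiquitin-like protein, went the other way, 6.88, 8.19, 7.73 and 6.11 against 2.58, 3.15 and 3.21 CPM with controls at 0.315 to 0.571 CPM (1.27 ± 0.15, adjusted p = 2.8e-05; 0.246 with replicate 3), as did IRF7, the interferon regulator (1.06 ± 0.14; 0.268 with replicate 3).

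Macrophage and neutrophil markers pointed in both directions, 8 of 31 higher in miR-101a and 4 higher in miR-29a (median 0.30; 1 and 2 with replicate 3). The most abundant member was apoeb, given above, and the summed level was 1210 to 1322 CPM in miR-101a and 2262 to 2894 CPM in miR-29a. The neutrophil gene lyz and CXCR4 (ENSDARG00000041959) and CXCR4 (ENSDARG00000057633), chemokine receptors of migrating cells, were higher in miR-101a (1.003 and 0.96; adjusted p = 0.164 and 0.306 with replicate 3). csf1ra, the growth factor receptor of macrophages and of yellow pigment cells, had 6.85, 6.52, 4.73 and 8.27 against 17.9, 17.3 and 24.8 CPM (-1.61 ± 0.18, adjusted p = 9.9e-05; 0.212 with replicate 3, which had 2.61 CPM). Whether leukocyte numbers differed was not tested.

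Pigment cell genes were higher in miR-29a. Of 33 tested 23 (69.7%) were higher in miR-29a and 4 higher in miR-101a (median -0.42; 10 and 2 with replicate 3). pmela, the fibril protein of melanosomes, had 130.4, 132, 137 and 120.0 CPM in miR-101a, 386, 312 and 378 CPM in miR-29a and 299.9 to 316 CPM in controls (-1.47 ± 0.07, adjusted p = 1e-07). XDH and aox5, of the pteridine pathway of yellow pigment cells, had 18.7, 22.5, 23.1 and 19.02 against 66.7, 50.1 and 66.2 CPM (-1.55 ± 0.11) and 47.0, 46.6, 40.7 and 43.1 against 84.1, 79.2 and 89.9 CPM (-0.93 ± 0.07). In all 3 genes every miR-101a library was below the controls and every miR-29a library within or above them. The purine gene pnp4a of silvery cells went the other way, 16.1 to 27.3 against 11.04 to 14.7 CPM (0.81 ± 0.17, adjusted p = 0.00471; 0.241 with replicate 3).

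Red cell and iron genes were more often called higher in miR-29a than higher in miR-101a. Erythroid markers gave 15 higher in miR-29a and 5 higher in miR-101a of 32 (median -0.36; 9 and 0 with replicate 3). gata1a, the main erythroid regulator, had 4.89, 4.43, 3.92 and 4.75 CPM against 12.1, 9.62 and 10.7 CPM with controls at 7.29 to 8.32 CPM (-1.26 ± 0.12, adjusted p = 7.4e-06), and SLC25A38 (ENSDARG00000059805), a glycine carrier for heme synthesis, 0.897, 1.04, 0.884 and 1.079 against 5.97, 4.27 and 3.81 CPM (-2.26 ± 0.21, adjusted p = 4.2e-06). Iron genes gave 13 and 6 of 24 (median -0.38; 3 higher in miR-101a without miR-29a replicate 1 or 4; 4 and 1 with replicate 3). ACO1 had 10.7, 10.5, 11.04 and 11.5 against 30.9, 27.2 and 30.1 CPM, with controls between at 15.9 to 17.8 CPM (-1.42 ± 0.08, adjusted p = 1.5e-07), and SLC40A1, the iron exporter ferroportin, was higher in miR-101a, 104, 99.5, 108 and 105 against 52.3, 65.7 and 57.8 CPM with controls at 79.9 to 85.6 CPM (0.83 ± 0.07, adjusted p = 3.1e-06).

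Endothelial genes gave 13 higher in miR-101a and 6 higher in miR-29a of 34 (median 0.0843; 6 and 3 with replicate 3). sox18, a vessel regulator, and PROX1, the lymphatic and lens regulator, were higher in miR-101a, 15.09 to 17.8 against 7.24 to 9.96 CPM and 33.1 to 38.3 against 19.8 to 23.2 CPM (0.94 ± 0.12 and 0.72 ± 0.08). The scavenger receptor genes stab2 and lyve1b, of veins and lymph vessels, were higher in miR-29a; lyve1b had 3.49, 3.5, 3.69 and 3.44 against 7.51, 6.02 and 7.16 CPM (-0.96 ± 0.13, adjusted p = 7.6e-05).

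Skin genes were called often in both directions, 17 higher in miR-101a and 21 higher in miR-29a of 52 (median -0.0551; 3 and 7 with replicate 3). The ionocyte regulator foxi3b and the keratin krt97 were higher in miR-101a, with foxi3b at 24.8, 25.4, 28.7 and 23.1 against 10.8, 12.6 and 10.01 CPM (1.197 ± 0.10, adjusted p = 2.5e-06) and krt97 at 73.9 to 95.0 against 32.7 to 43.2 CPM (1.204 ± 0.12; adjusted p = 0.147 with replicate 3). The junction genes dsc2l, a desmosomal cadherin, and cldne, a claudin, were higher in miR-29a, with dsc2l at 58.3, 57.2, 58.2 and 58.2 against 117, 99.0 and 122 CPM (-0.96 ± 0.07, adjusted p = 8.2e-07) and cldne at 60.3 to 70.5 against 109 to 132 CPM (-0.90 ± 0.08). Of 9 hatching gland genes 3 were higher in miR-101a and 3 higher in miR-29a, with 1 higher in miR-101a without miR-29a replicate 4 and 0 and 1 with replicate 3. arf4b, a small GTPase gene, had 10.8, 9.18, 6.08 and 7.99 against 29.8, 17.6 and 24.6 CPM, all far above the controls at 0.189 to 0.724 CPM (-1.49 ± 0.22, adjusted p = 0.00131).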

How the data were processed

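RNA of whole 2-day zebrafish was sequenced in 12 libraries, per the labels. Per the submitters' processing notes, the tools were STAR 2.4.1d, bcl2fastq 1.8.4 and featureCounts 1.4.6-p4 with the build GRCz10; settings are not given in the sources used here. The authors deposited whole-number counts per gene, which were used as deposited. The authors also deposited RPKM values. In 7554 genes that reached 300 counts in each library, the gene length implied by count and RPKM varied by 17.6% (median CV) with each library's own total, and by at most 0.0254% with the totals of other libraries, so the deposited RPKM served only to recover gene lengths, for 27334 genes, and RPKM was recomputed from them.

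Counts of the 7 libraries were fitted in R 4.3.3 with edgeR 4.0.16 (robust quasi-likelihood, TMM scaling, filterByExpr with a minimum count of 10, no covariate), adjusted by Benjamini-Hochberg over 20682 of 32105 genes. Controls and miR-29a replicate 3 were put on the same scale for display only. In simulated counts with these library sizes, 50 genes were changed at each fold, far fewer in all than the 8131 called here. Of these, 33 changed 1.5-fold, 47 changed 2-fold, 50 changed 4-fold and 50 changed 8-fold were called. Beside them stood 19 false calls among 20313 genes. With so few changed genes the cutoff was stricter than in the data, so these counts do not carry over to the data. Alternatives used DESeq2 1.42.0, limma 3.58.1 (log2 of RPKM + 0.5, recomputed from raw library totals without TMM factors), other filters and scalings, a replicate block and leaving out each library.

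The 45 gene lists held 1580 entries, of which 1130 matched by symbol, 357 by the symbol without its copy suffix, 25 by a synonym, 3 by an alias, and 65 not at all. An entry brought in every gene that carried the matched symbol. Genes without a symbol took 1.44% of counts. Named genes were the 12 largest log2 differences per direction whose higher group averaged 5 CPM or more and whose groups did not overlap, up to 3 members per list and direction, and 10 per direction by p and by CPM difference; the last 2 sets were added after the values were seen. The members, lists and tests were chosen with earlier results of these data known. RNA depth was 19804199 to 30383374 counts in the libraries compared. Sequences and coordinates were not used here. A few named genes are not reported here.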

Additional observations from a re-analysis of the deposited data

Results flagged for a closer look

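In groups of 4, a library far from the other 3 is met by chance in about 1 of 20 groups, and 7 of the 163 genes described had such a miR-101a library. In miR-101a replicate 3, prl had 14.2 CPM against 10.8 to 10.9 in the other 3, and sox18 17.8 against 15.5 CPM or less. In miR-101a replicate 1, notum2 had 7.64 CPM against 15.8 to 16.4, il11b 1.23 against 0.154 to 0.16, ACP5 14.9 against 4.08 to 4.92 and PSAP 760.0 against 685 to 697 CPM. In miR-101a replicate 2, dsc2l had 57.2 CPM against 58.2 to 58.3. The first replicate thus stood on the miR-29a side for notum2, il11b, ACP5 and PSAP.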

How the results depend on the processing

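The main limit is the choice of miR-29a libraries. With miR-29a replicate 3 the calls fell from 4067 and 4064 to 941 higher in miR-101a and 950 higher in miR-29a, and called list members from 829 to 268. With all 12 libraries in 1 fit the calls were 1927 and 1803 (445 list members), and a test against a minimum of 1.2-fold left 1992 and 1782 (477 list members). Leaving out 1 library gave 3018 to 3949 and 3019 to 3910. A fit that shared its spread with the 4 controls, 11 libraries in all, gave 4657 and 4486. The other scalings, filters and tools gave 3107 to 4280 calls higher in miR-101a and 3698 to 5091 higher in miR-29a, and no called gene was called in the opposite direction under any of these alternatives. All alternatives reused most or all of the same libraries, so the lack of opposite calls is no separate support.

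For numbers 1, 2 and 4, miR-101a and miR-29a replicates with the same number correlated by 0.0922, 0.113 and 0.111 in their deviations from the group means. The highest correlations of these miR-101a libraries with another number were 0.0836, -0.00792 and -0.0401. The correlations were low and the main fit did not take the numbers as pairs, but each was highest with its own number. Whether replicates of the same number shared a batch was not tested. With a replicate block 3868 and 3940 genes were called, 7331 of them also called without it; prl, sst1.2, crx, lyz and irg1l were not. EZH2 was called with a filter of 1 CPM in 3 libraries, with gene length offsets, with the block and length offsets together, and with the 11 libraries (adjusted p = 0.0488, 0.0226, 0.0326 and 0.0201). It was not called under the other alternatives.

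The difference of FADS3, which was not called, changed sign with the replicate block (-0.0407), the block with length offsets (-0.0369) and limma on RPKM (-0.0291), and ranged from -0.0266 to 0.17 when 1 library was left out. The mitochondrial share of counts, 2.65 ± 0.124% in miR-101a and 2.68 ± 0.112% in miR-29a (SD, exact permutation p = 0.8, n = 4 and 3), differed by 0.101 points the other way per TMM size and by -0.09 to 0.015 points when 1 library was left out; the cause was not tested. The planned seed matches and promoter motifs were not run, because no sequences were at hand.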
